A study of Mus musculus with 5 samples.

Results

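The genes described here encode the cytoskeleton of axons and the proteins that dock and fuse synaptic vesicles, together with a few transcripts used as markers of neurons. They were chosen by gene symbol, which took in the neurofilaments, tubulins, stathmins, numbered microtubule-associated proteins, synaptotagmins, SNAP proteins, synapsins and neuronal Elav-like proteins, and the genes Prph, Uchl1, Gap43, Isl1, Mapt, Dcx and Shtn1. The rule found 33 probe sets for 33 genes among the 10361 probe sets of the table. Each array measured RNA from a pool of 12 mouse sciatic nerves taken at postnatal day 2 on a C57Bl6N background. The KO group was Ebf2-/- (knock out), with 2 pools (numbers 2 and 4), and the WT group was Ebf2+/+ (wild type), with 3 pools (numbers 1, 9 and 11). Both genotypes came from crosses of Ebf2 heterozygotes. The Ebf2 protein is a DNA-binding regulator related to early B cell factor, and the comparison asks which transcripts of the newborn nerve differ when it is missing. The labels give neither the exons removed, nor the number of animals or litters in a pool, nor hybridisation dates. P-values therefore measure the spread between these pools only, which may be technical in part. All values are log2 expression values made by RMA (a summary of the probes of each probe set), so a difference of 1 is a doubling, and the number of arrays limits the precision.

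A sciatic nerve contains axons, the Schwann cells that wrap them, and connective tissue and vessels, while the cell bodies of its neurons lie outside it, in the dorsal root ganglia, the spinal cord and the sympathetic chain. Neurofilaments are intermediate filaments that fill the axon and set its calibre, and microtubules built from tubulin serve as tracks for transport. Stathmins and microtubule-associated proteins control how these tracks grow and hold together, and synaptotagmins, SNAP proteins and synapsins serve vesicle release. Most messenger RNA for these proteins sits in the neuronal cell body, with a smaller share carried into axons. Several members are also made outside neurons, among them Map4 and Tubb6 in many cell types, Stmn1 in dividing cells and Tubb1 in platelets. In RNA of a whole nerve, fewer cells of a type and less RNA per cell cannot be told apart.

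The pools differed before any genotype was considered. Array medians were 8.93 and 9.11 in the KO pools, against 9.04 to 9.11 in the WT pools. Ebf2 itself read 9.25 and 8.75 in KO pools 2 and 4, against 11.55, 11.14 and 11.40 in WT pools 1, 9 and 11, so every array stood on the side of its label. Markers of skin, muscle and other cell types set WT pools 9 and 11 apart. At 9 of 10 endothelial and 4 of 5 measured fibroblast markers, both of these pools lay below all the others. The 14 of 15 listed keratinocyte markers that were measured averaged 7.42 and 7.69 in the KO pools, against 7.35, 9.24 and 8.62 in WT pools 1, 9 and 11. The 26 of 27 listed skeletal muscle markers averaged 9.87 and 10.10 in the KO pools, against 9.45, 10.77 and 10.63 in the WT pools. The tissue label could be checked on 9 of 14 listed Schwann cell markers, which averaged 11.20 and 10.72 in the KO pools, against 11.46, 11.66 and 11.51 in the WT pools. Sox10, the transcription factor that defines the lineage, read 11.64 and 11.24 in KO, against 11.65, 11.64 and 11.65 in WT. The table holds no detection calls, so no member could be placed above or below background.

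Of the 33 members, 1 fell in the KO pools and 0 rose at an adjusted p below 0.05 (limma, Benjamini-Hochberg over all probe sets). Of all probe sets on the arrays' table, 0.328% passed as lower and 0.347% as higher. At unadjusted p below 0.05, 3 members were lower (Shtn1, Nefl and Nefm) and 1 was higher (Syt13), which is 9.09% and 3.03% of the members beside 7.17% and 7.14% of all probe sets. Both KO pools lay below all WT pools at 3 members (Shtn1, Nefl and Syn3) and above them at 1 (Tubb6), or 9.09% and 3.03%, beside 13.3% and 17.5% of the table. In all, 20 members had a negative log2 fold change (KO minus WT) and 13 a positive one. Their median was -0.05, beside -0.002 over the table. For 25 of the 33 members the highest level was that of 1 WT pool, number 9.

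**Figure D1:**
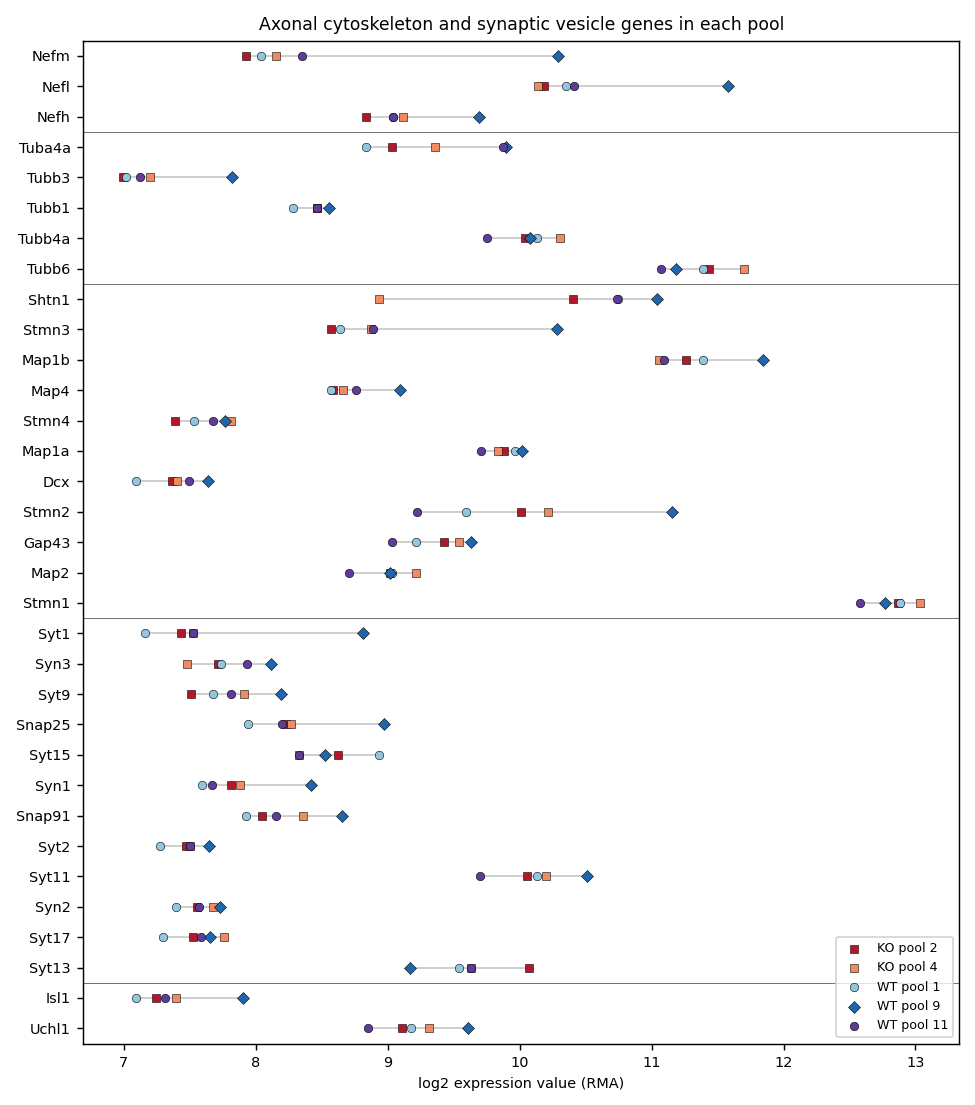
Level of each of the 33 members (rows, grouped by role between the horizontal lines) on the log2 scale (x axis) in the 2 KO pools (squares) and the 3 WT pools (circles, with a diamond for WT pool 9). WT pool 9 is the rightmost point in 25 rows, while Shtn1 is the row in which KO pool 4 stands far to the left.

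Shtn1, which encodes shootin-1, a protein that couples actin flow to adhesion in growing axons, was the member that passed. It read 10.40 and 8.93 in KO pools 2 and 4, against 10.75, 11.04 and 10.74 in WT pools 1, 9 and 11. The genotypes did not overlap, but KO pool 2 lay close under the WT pools and KO pool 4 far below. Its mean was 9.67 ± 1.04 (SD, n = 2) in KO and 10.84 ± 0.17 (SD, n = 3) in WT, a 2.26-fold lower level in KO (log2 fold change -1.17, SE 0.27, limma adjusted p = 0.0465). With the spread of Shtn1 alone the SE was 0.56 (limma without moderation, adjusted p = 0.56), in a fit in which 0 probe sets of the table passed. Without KO pool 4 the log2 fold change was -0.44, and it was -1.91 without KO pool 2. Without WT pool 1, without WT pool 9 or against WT pool 1 alone the log2 fold change stayed at -1.22, -1.08 and -1.08. The call was lost without WT pool 1 or without WT pool 9 (limma adjusted p = 0.290 and 0.831). Without WT pool 9, Ebf2 was the only probe set of the table that passed (adjusted p = 0.0472). Ebf2 itself did not pass without KO pool 4 or against WT pool 1 alone. Fits that leave 1 pool in a group therefore cannot judge the call. Shtn1 still passed without WT pool 11 (log2 fold change -1.23, limma adjusted p = 0.000585). In that fit every member had the same SE, 0.256, so this p-value does not reflect the spread of Shtn1 itself. Shtn1 also passed when probe sets with a mean under the 25th or the 50th percentile were left out (adjusted p = 0.047 and 0.00455). The mean of the 9 Schwann cell markers was lowest in the same pool, at 10.72 in KO pool 4 beside 11.20 in KO pool 2. Of the 9, 7 were lowest in KO pool 4, while Gfra3 was highest there and Foxd3 was lowest in WT pool 9. Of these markers 3 (Pmp2, Egr2 and Mag) were lower in KO at a limma adjusted p below 0.05, beside 0.328% of all probe sets. In all, 7 of the 9 had a negative log2 fold change. Both KO pools lay below all WT pools at 6 of them, beside 13.3% of the table. The part of the Schwann cell content in the Shtn1 value was not tested.

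The neurofilament subunits were set apart by 1 WT pool. Nefm, the medium subunit, read 7.93 and 8.15 in KO pools 2 and 4, against 8.04, 10.29 and 8.35 in WT pools 1, 9 and 11. Nefl, the light subunit on which the filament is built, read 10.19 and 10.14 in KO, against 10.35, 11.58 and 10.41 in WT. Nefh, the heavy subunit, which is added as axons mature, read 8.83 and 9.11 in KO, against 9.04, 9.70 and 9.04 in WT. For each of the 3 subunits WT pool 9 stood above the other 4 pools, by 1.94 for Nefm, 1.17 for Nefl and 0.58 for Nefh, and those other pools lay within a narrow range. The log2 fold changes were -0.85 (SE 0.39, limma adjusted p = 0.316) for Nefm, -0.62 (SE 0.26, adjusted p = 0.270) for Nefl and -0.29 (SE 0.20, adjusted p = 0.531) for Nefh, and none passed. Without WT pool 9 they shrank to -0.15, -0.22 and -0.07. Nefm passed only when WT pool 11 was left out (log2 fold change -1.12, adjusted p = 0.00301), in a fit whose 2 remaining WT pools, 1 and 9, differed at Nefm as stated above. That fit gave every member the same SE, 0.256, so its p-value does not reflect the spread of Nefm itself. Nefl kept both KO pools below all WT pools, with the nearest pair at 10.19 in KO pool 2 and 10.35 in WT pool 1. Prph, the intermediate filament of small sensory neurons, was not analysed here.

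Tubulins did not pass in either direction. Tubb3, the neuronal beta-tubulin, read 6.99 and 7.20 in KO pools 2 and 4, against 7.02, 7.82 and 7.12 in WT pools 1, 9 and 11, again highest in WT pool 9 (log2 fold change -0.22, SE 0.21, limma adjusted p = 0.635). Tubb6, a beta-tubulin of many cell types, read 11.43 and 11.70 in KO, against 11.39, 11.18 and 11.07 in WT. It was the one member whose KO pools both lay above all WT pools (log2 fold change 0.35, SE 0.17, adjusted p = 0.367), and its difference from WT pool 1 alone was 0.18. The 19 of 20 listed markers of dividing cells that were measured had means of 10.80 and 10.76 in KO, against 10.76, 10.24 and 10.12 in WT pools 1, 9 and 11. At 15 of the 19 both WT pools 9 and 11 lay below the other 3 pools, the exceptions being Mcm2, Mcm3, Mcm6 and Top2a, and the part of these markers in the Tubb6 value was not tested. Tuba4a, an alpha-tubulin also found in muscle, read 9.03 and 9.36 in KO, against 8.83, 9.90 and 9.88 in WT. It was thus high in WT pools 9 and 11, as the skeletal muscle markers were. Its log2 fold change was -0.34 (SE 0.24, adjusted p = 0.539), and 0.36 against WT pool 1 alone. Tubb4a and Tubb1 had log2 fold changes of 0.18 and 0.03. Tubulin genes are near copies of each other in their coding parts, so the signal of a tubulin probe set may include paralogs.

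Among the stathmins and growth cone proteins, Stmn3 and Stmn2 were highest in WT pool 9, while Stmn4 and Stmn1 were not. Stmn3 read 8.57 and 8.88 in KO pools 2 and 4, against 8.64, 10.28 and 8.89 in WT pools 1, 9 and 11. Stmn2, which keeps microtubules dynamic in growing axons, read 10.01 and 10.21 in KO, against 9.60, 11.15 and 9.22 in WT. Both were highest in WT pool 9, and for Stmn2 both KO pools lay above the 2 remaining WT pools. The log2 fold change of Stmn3 was -0.55 (SE 0.31, limma adjusted p = 0.420) and -0.04 without WT pool 9. That of Stmn2 was 0.12 (SE 0.34, adjusted p = 0.857) and 0.70 without WT pool 9 (adjusted p = 0.831). Gap43, a membrane protein of growth cones that Schwann cells also make, read 9.43 and 9.54 in KO, against 9.22, 9.63 and 9.03 in WT (log2 fold change 0.19, SE 0.19, adjusted p = 0.645), with WT pool 9 only just above KO pool 4. Stmn1, the stathmin of dividing cells, read 12.87 and 13.03 in KO, against 12.88, 12.77 and 12.58 in WT (log2 fold change 0.21, SE 0.17, adjusted p = 0.598). It was highest in KO pool 4, and KO pool 2 lay level with WT pool 1. Stmn4, a further neuronal stathmin and one named after its values were seen, read 7.39 and 7.81 in KO, against 7.53, 7.77 and 7.68 in WT, and was highest in KO pool 4 as well.

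None of the microtubule-associated proteins passed. Map1b, which is abundant in growing axons, read 11.26 and 11.06 in KO pools 2 and 4, against 11.39, 11.85 and 11.10 in WT pools 1, 9 and 11, and the genotypes overlapped (log2 fold change -0.28, SE 0.20, limma adjusted p = 0.532). Map2, the microtubule protein of dendrites, read 9.02 and 9.21 in KO, against 9.04, 9.02 and 8.71 in WT. WT pool 9 was not its highest pool, and its log2 fold change was 0.19 (SE 0.17, adjusted p = 0.619). Dcx, for doublecortin of young neurons, read 7.37 and 7.41 in KO, against 7.09, 7.64 and 7.49 in WT, with a log2 fold change of -0.02 (SE 0.18). Map4, Map1a and Stmn4 had log2 fold changes from -0.18 to -0.04. Mapt, for tau, was not analysed here.

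Of the 12 vesicle and fusion proteins, 7 had a negative and 5 a positive log2 fold change, and 1 of these 5, Syt13, had the highest value of all 33 members. Syt13, an atypical synaptotagmin, read 10.07 and 9.63 in KO pools 2 and 4, against 9.54, 9.17 and 9.64 in WT pools 1, 9 and 11. Its genotypes overlapped, and WT pool 9 was its lowest pool (log2 fold change 0.40, SE 0.19, limma adjusted p = 0.342). Syt1, the calcium sensor of fast transmitter release, read 7.44 and 7.52 in KO, against 7.16, 8.81 and 7.52 in WT. Snap25, a SNARE protein of the vesicle fusion machinery, read 8.23 and 8.27 in KO, against 7.94, 8.97 and 8.20 in WT. Syn1, a synapsin that tethers vesicles, read 7.81 and 7.88 in KO, against 7.59, 8.42 and 7.67 in WT. For all 3 of these release genes, WT pool 9 was the highest pool and WT pool 1 the lowest, with the KO pools in between. Syt1, Snap25 and Syn1 had log2 fold changes of -0.35, -0.12 and -0.05 and did not pass (adjusted p = 0.603, 0.790 and 0.913), and without WT pool 9 their values were 0.14, 0.18 and 0.22. Syn3, a further synapsin, read 7.71 and 7.48 in KO, against 7.74, 8.12 and 7.93 in WT, with the KO pools just below the WT pools (log2 fold change -0.33, SE 0.18, adjusted p = 0.396). In the same group Syt2, Syt9, Syt11, Syt15, Syt17, Syn2 and Snap91 had log2 fold changes from -0.18 to 0.13.

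**Figure D2:**
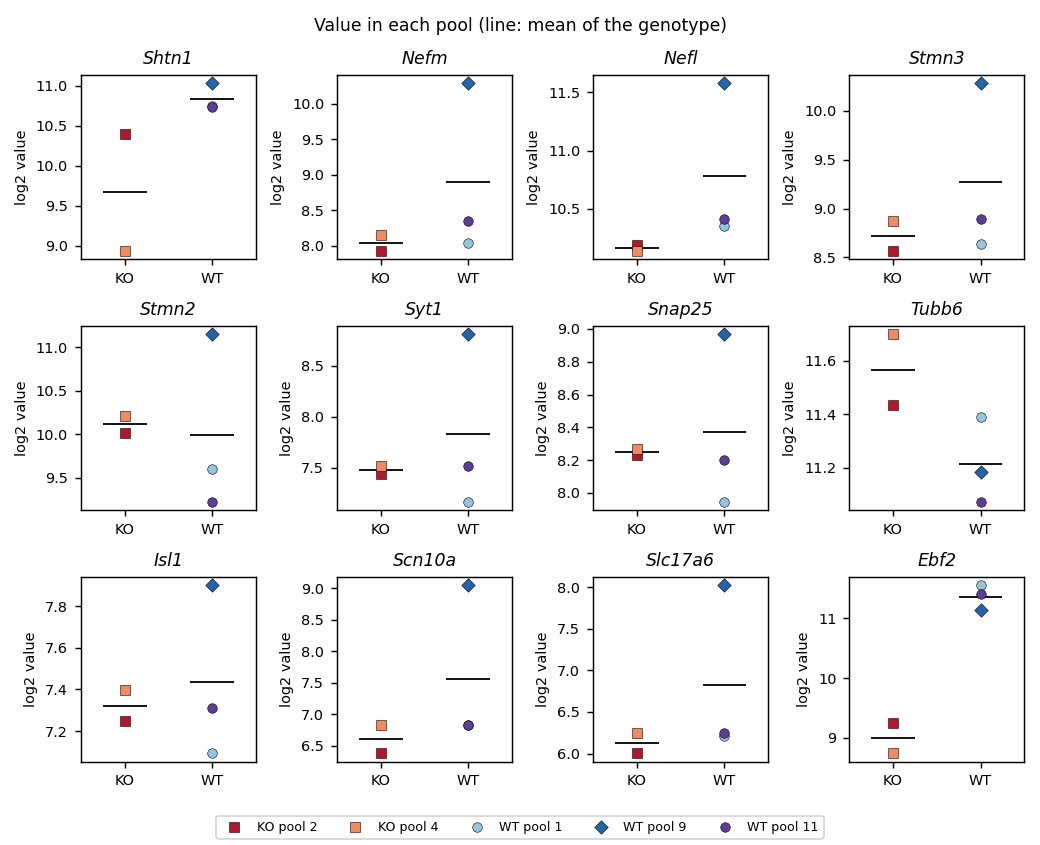
Log2 value of 9 members, of the sensory neuron genes Scn10a and Slc17a6, and of the targeted gene Ebf2 in each pool, with KO on the left and WT on the right of each panel and a line at the mean of each genotype. In the panels of Nefm, Nefl, Stmn3, Syt1, Scn10a and Slc17a6, WT pool 9 stands alone at the top, while in the Ebf2 panel the genotypes are apart.

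Isl1 and Uchl1 complete the members. Isl1, a homeodomain factor of sensory, motor and sympathetic neurons, read 7.25 and 7.40 in KO pools 2 and 4, against 7.09, 7.90 and 7.31 in WT pools 1, 9 and 11. Uchl1, an abundant ubiquitin hydrolase of neurons, read 9.11 and 9.32 in KO, against 9.18, 9.61 and 8.85 in WT. Both were highest in WT pool 9, with log2 fold changes of -0.11 (SE 0.20, limma adjusted p = 0.787) and 0.00 (SE 0.20, adjusted p = 0.999). Elavl2, Elavl3 and Elavl4, RNA-binding proteins of neurons, were not analysed here. In all, RefSeq lists 64 protein-coding mouse genes whose symbols match the rule, of which 31 were not analysed here.

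WT pool 9 was the highest of the 5 pools for 25 of 33 members, beside 26.8% of all probe sets. The exceptions were Tubb4a, Tubb6, Map2, Stmn1, Stmn4, Syt13, Syt15 and Syt17. WT pool 11 was highest for 0 members and WT pool 1 for 1. Relative to the mean of WT pools 1 and 11, the median excess of WT pool 9 was 0.45 over the members and 0.02 over the table. At Nefm it came to 4.27-fold, at Stmn2 to 3.35-fold, at Stmn3 to 2.87-fold and at Syt1 to 2.77-fold. Of the 33 members, 4 (Nefm, Stmn3, Syt1 and Nefl) stood in WT pool 9 more than 1 above every other pool, beside 0.28% of the table, or 29 probe sets. This threshold was set after the values were seen, and these counts describe 1 pool without any test.

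WT pool 9 was also the highest pool for 12 of the 14 keratinocyte and 17 of the 26 skeletal muscle markers, beside 26.8% of all probe sets. Keratinocyte and muscle markers were raised in WT pool 11 as well, by a median of 0.99 and 1.24 over WT pool 1, whereas the members were raised there by 0.10. Averaged over the members, the difference from each gene's own mean over the pools was -0.11 and -0.04 in KO pools 2 and 4, and -0.15, 0.41 and -0.12 in WT pools 1, 9 and 11. For the keratinocyte markers the same quantity was 1.18 in WT pool 9 and 0.55 in WT pool 11, and for muscle it was 0.60 and 0.47. What nerve, ganglion or skin tissue each pool held is not given in the labels, and its part in the values of WT pool 9 was not tested.

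**Figure D3:**
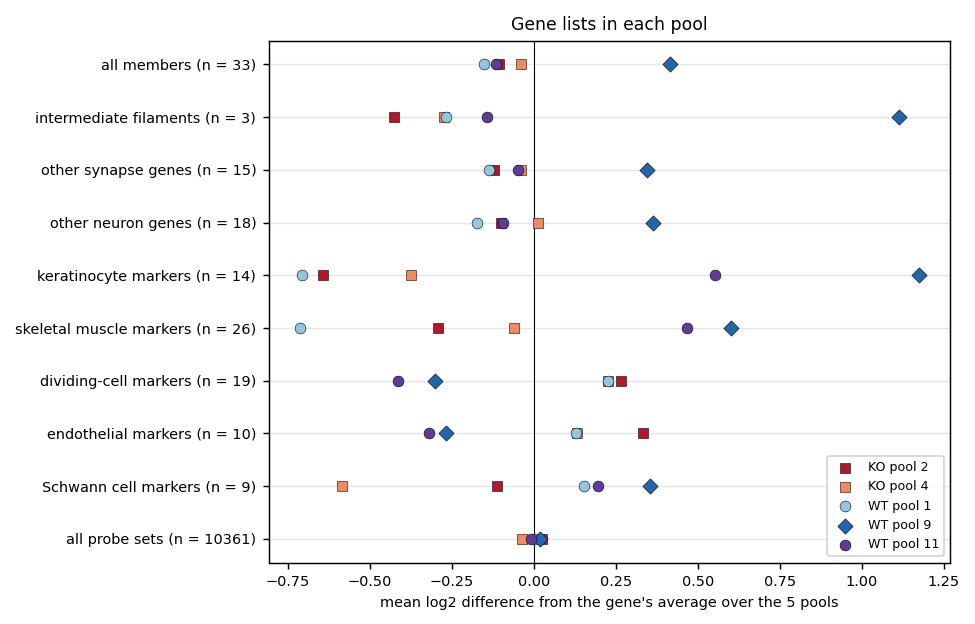
Mean difference of the genes of each list from their own average over the 5 pools (x axis, log2) in the 2 KO pools (squares), WT pools 1 and 11 (circles) and WT pool 9 (diamond). The members and the other neuronal lists are raised in WT pool 9 and not in WT pool 11, while the keratinocyte and muscle markers are raised in both.

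Most of the other neuronal genes, which the rule did not use, were also highest in WT pool 9. Of 106 listed genes of synapses, axonal transport, axonal adhesion and sensory, motor and sympathetic neurons, 59 were measured. Of these, 0 passed at an adjusted p below 0.05 (limma), beside 0.328% lower and 0.347% higher over all probe sets. At unadjusted p below 0.05, 4 were lower and 2 higher, beside 7.17% and 7.14% of all probe sets. The median log2 fold change of the 59 was -0.11. WT pool 9 was the highest pool for 36 of the 59, beside 26.8% of all probe sets, and another pool for 23 of them. Scn10a, the sodium channel of pain-sensing neurons, read 6.38 and 6.82 in KO pools 2 and 4, against 6.82, 9.05 and 6.82 in WT pools 1, 9 and 11. P2rx3, the ATP receptor of the same neurons, read 6.93 and 7.03 in KO, against 6.89, 9.21 and 7.09 in WT. Slc17a6, which loads glutamate into vesicles, read 6.01 and 6.25 in KO, against 6.21, 8.03 and 6.25 in WT. At each of these genes WT pool 9 stood far above the other 4 pools, which lay close together. They are the extremes of their lists. WT pool 9 was highest for 10 of the 18 sensory, motor and sympathetic neuron genes and 11 of the 15 synapse genes. It was the lowest pool for Ntrk2, Dbh, Runx1 and Sv2b, which are named here after their values were seen. Sv2b read 10.80 and 10.68 in KO, against 10.79, 10.03 and 10.69 in WT. For Scn10a the values of KO pool 4, WT pool 1 and WT pool 11 were equal. Avil, for advillin of sensory neurons (a gene of the list that is named here after its values were seen), and Rab3c, for a small GTPase of vesicles, were the further genes of the 59 that stood more than 1 above every other pool in WT pool 9. Without WT pool 9 the median log2 fold change of the 59 genes was 0.04. For the 36 genes highest in that pool a rise follows by construction.

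The 18 transport and scaffold genes had a median log2 fold change of -0.14 and the 8 adhesion genes one of -0.18, and 0 of either stood in WT pool 9 more than 1 above every other pool. Of the 18 transport genes, 3 were lower and 1 was higher at unadjusted p below 0.05 (limma), beside 7.17% and 7.14% of all probe sets. Both KO pools lay below all WT pools at 6 of the 18 and above them at 3, beside 13.3% and 17.5% of the table. With 18 genes these counts are small, and no test was run over them. Rtn1, a reticulon of the neuronal endoplasmic reticulum, read 9.08 and 8.90 in KO pools 2 and 4, against 9.17, 9.99 and 9.17 in WT pools 1, 9 and 11 (log2 fold change -0.46, SE 0.21, limma adjusted p = 0.337). Dpysl3, a collapsin response mediator of growth cones, read 11.33 and 11.62 in KO, against 11.15, 11.11 and 10.77 in WT (log2 fold change 0.47, SE 0.18, adjusted p = 0.226). Their genotypes did not overlap, Rtn1 with KO below and Dpysl3 with KO above, but neither passed. Of the adhesion genes, Nfasc, for neurofascin of the node of Ranvier, had the most negative value (log2 fold change -0.37, SE 0.18, adjusted p = 0.353), followed by Chl1, a relative of L1 (-0.36, SE 0.18).

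Promoters are shown for 4 neuronal members (Syn1, Stmn3, Tubb3 and Isl1), so that their start regions can be compared. The 4 were picked by hand and include the only member with the fragment marked below. All 4 were highest in WT pool 9, but so were 25 of the 33 members, so this does not set them apart. RefSeq promoter windows of build GRCm38.p6 were found for 20 of the 33 genes, in 25 windows. The genes without a window included Shtn1, Nefl, Nefm, Nefh, Stmn2 and Syt13, so their promoters were not searched. Each sequence gives the 250 bases before the transcription start, 5′ to 3′ along the gene, at chrX:20920919-20921168 on the minus strand for Syn1, chr2:181314501-181314750 on the minus strand for Stmn3, chr8:123411303-123411552 on the plus strand for Tubb3 and chr13:116309689-116309938 on the minus strand for Isl1. Capitals mark TTCAGCACC, part of the RE1 motif that the repressor REST binds near neuronal genes, searched on both strands.
Syn1: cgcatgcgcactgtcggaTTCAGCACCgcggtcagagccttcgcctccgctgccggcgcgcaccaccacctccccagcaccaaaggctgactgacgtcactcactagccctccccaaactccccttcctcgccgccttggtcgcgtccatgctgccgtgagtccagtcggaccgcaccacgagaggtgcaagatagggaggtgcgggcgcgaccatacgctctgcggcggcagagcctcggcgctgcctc
Stmn3: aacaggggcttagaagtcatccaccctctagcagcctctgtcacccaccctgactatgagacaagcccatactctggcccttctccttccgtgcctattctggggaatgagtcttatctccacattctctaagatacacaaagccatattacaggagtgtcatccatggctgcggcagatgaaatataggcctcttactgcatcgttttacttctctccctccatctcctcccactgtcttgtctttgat
Tubb3: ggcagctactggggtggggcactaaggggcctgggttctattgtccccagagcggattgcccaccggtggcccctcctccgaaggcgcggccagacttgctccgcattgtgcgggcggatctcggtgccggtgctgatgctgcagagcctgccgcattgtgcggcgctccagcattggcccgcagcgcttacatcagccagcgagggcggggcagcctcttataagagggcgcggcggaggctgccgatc
Isl1: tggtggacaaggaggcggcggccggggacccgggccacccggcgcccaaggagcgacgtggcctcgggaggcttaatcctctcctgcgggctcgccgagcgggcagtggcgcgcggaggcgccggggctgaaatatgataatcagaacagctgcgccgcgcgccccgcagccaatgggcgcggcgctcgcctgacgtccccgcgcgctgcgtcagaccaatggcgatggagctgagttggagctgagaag
The fragment stood in 1 of the 25 windows, that of Syn1, beginning 232 bases before the start, and in 0.301% of all 32851 windows. The core of the motif that early B cell factors bind, TCCCNNGGG on either strand, stood in 0 of the 25 windows and in 5.6% of all windows. Both are matches of letters in the 250 bases searched and say nothing of binding. The G and C content was 68% for Syn1 and Tubb3, 71.2% for Isl1 and 48.8% for Stmn3.

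With WT pool 9 set aside, more members had a positive than a negative log2 fold change, and none passed. WT pool 9 was left out after it was seen to be highest for 25 of the 33 members. For those members a rise of the log2 fold change follows by construction. Without that pool the median log2 fold change was 0.10 over the members and 0.01 over the table, and 21 of the 33 members were positive, beside 51.4% of all probe sets. At an adjusted p below 0.05 (limma) 0 members passed, beside 0.00965% of the table. At unadjusted p below 0.05 there was 1 member lower in KO (Shtn1) and 1 higher (Stmn2), beside 1.64% and 2.5% of all probe sets. Against WT pool 1 alone the median was 0.08 over the members and 0.005 over the table, and 25 of the 33 members were positive, beside 50.8% of all probe sets. In that comparison 0 members and 0% of the table passed, and 0 members were at unadjusted p below 0.05, beside 0.898% lower and 1.86% higher over the table. WT pool 1 was itself the lowest pool for 12 of the 33 members, beside 17.9% of all probe sets. The neurofilaments stayed slightly negative without WT pool 9 at all 3 subunits, the vesicle group had a median of 0.15 in place of -0.04, and Shtn1 was at -1.08 in place of -1.17.

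**Figure D4:**
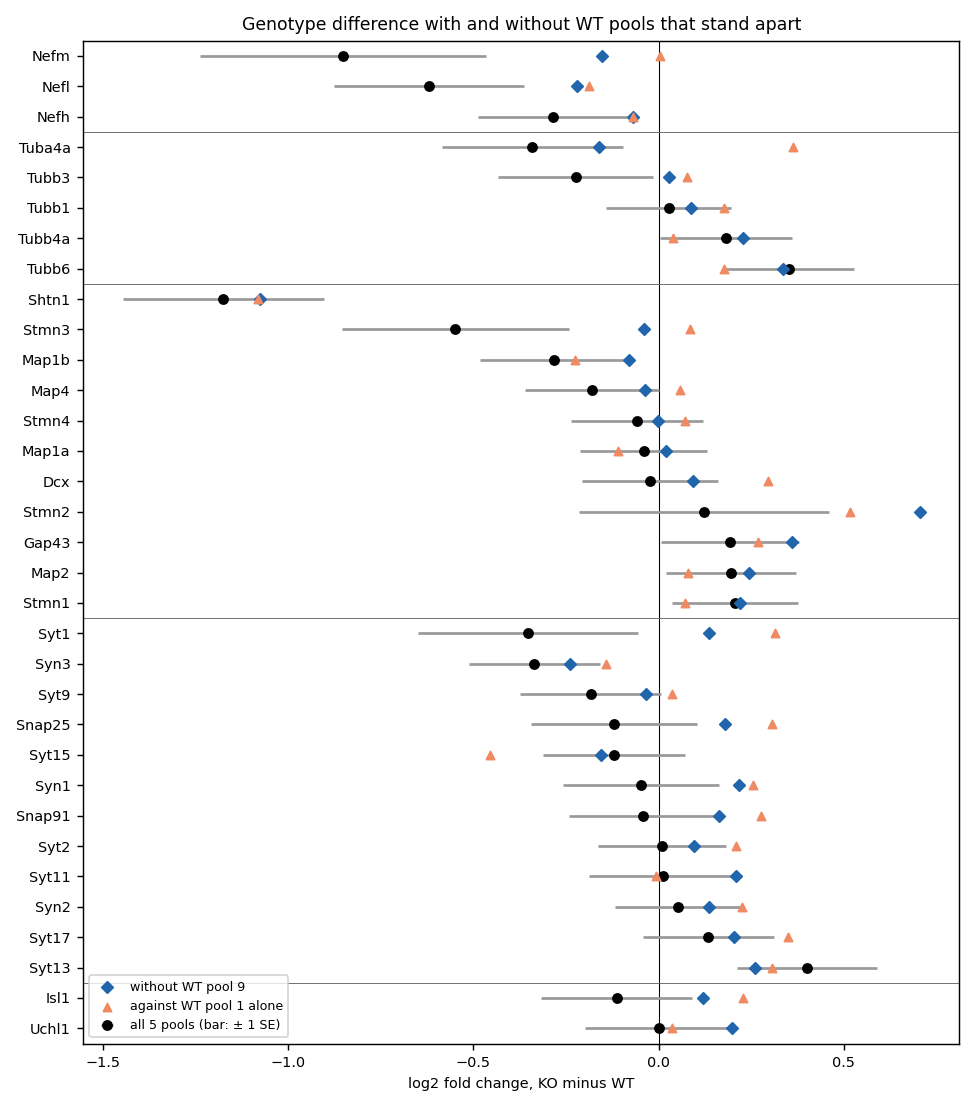
Log2 fold change, KO minus WT, of each member (x axis) from all 5 pools (black, bar of 1 SE on either side), without WT pool 9 (blue diamonds) and against WT pool 1 alone (orange triangles). Nefm, Nefl, Stmn3 and Syt1 move toward or past 0 when WT pool 9 is left out, while Shtn1 has -1.17, -1.08 and -1.08. Those 4 members stood more than 1 above every other pool in WT pool 9, so a rise without it follows by construction.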

How the data were processed

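The deposited table held log2 values, 1 per probe set and array, made by the authors with RMA per the submitters' processing notes, on Affymetrix whole-transcript arrays. The sources used here give neither the version nor the settings of RMA. In every probe set the fourth-ranked value exceeded the lowest by at least 0.175, so genes with little spread between pools are not analysed here, and moderation of variances may be affected. In the platform annotation 9411 probe sets had 1 symbol, 384 several and 566 none. All 33 member symbols matched RefSeq (GRCm38.p6) by gene identifier.

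Genotypes were compared with limma 3.58.1 in R 4.3.3 (lmFit, eBayes, default prior, no covariates, 17.4 prior and 3 residual degrees of freedom). A call was a two-sided p below 0.05 after Benjamini-Hochberg adjustment across the 10361 probe sets. The fit was tested on simulated data with independent noise and no pool that stood apart, so that test does not cover pool differences like those seen here. The members and lists were chosen with earlier results of these data known, so no test was run over a list. Named were members passing at adjusted or unadjusted p, the 3 members of each role with the strongest change, and neuron-defining members, and of the other lists the genes passing and the 2 strongest. Alternatives changed the normalisation, moderation, low-value filter and pools.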

Additional observations from a re-analysis of the deposited data

How the results depend on the processing

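The call at Shtn1 and the number of calls depended on the settings, and the cause was not tested. In all, 70 probe sets passed. Median centring and quantile normalisation gave 1 each, no moderation 0, moderation with a trend and robust estimates 574, the filter above the 50th percentile 287, the comparison with WT pool 1 alone 0, and leaving out 1 pool from 0 to 105. Of the members, 1 passed, against 0 under both normalisations, both other moderations and WT pool 1 alone, and 0 to 2 without 1 pool. Shtn1 had adjusted p from 0.000585 to 0.831 over the alternatives that kept at least 2 pools in each group. The related genes gave 0 calls under all alternatives but one, with 0 to 3 when a pool was left out, and their median was 0.081 against WT pool 1 alone, beside -0.11. The filters kept 26 and 14 of the 33 members. No paired analysis was possible because no pool number occurs in both genotypes.

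Signs turned only for members that did not pass. Against WT pool 1 alone the log2 fold change turned to 0.003 for Nefm, 0.086 for Stmn3, 0.057 for Map4, 0.071 for Stmn4, 0.29 for Dcx, 0.23 for Isl1, 0.32 for Syt1, 0.035 for Syt9, 0.31 for Snap25, 0.26 for Syn1, 0.28 for Snap91, -0.008 for Syt11, 0.36 for Tuba4a and 0.077 for Tubb3. With median centring it turned to 0.00033 for Stmn4, 0.019 for Map1a, 0.037 for Dcx, 0.012 for Syn1 and 0.017 for Snap91, and with quantile normalisation to 0.005 for Stmn4, 0.010 for Dcx, 0.002 for Syn1, 0.030 for Snap91 and -0.008 for Syt11. Leaving out 1 pool gave a range of -0.27 to 0.15 for Stmn4, -0.14 to 0.021 for Map1a, -0.18 to 0.094 for Dcx, -0.26 to 0.70 for Stmn2, -0.28 to 0.12 for Isl1, -0.18 to 0.20 for Uchl1, -0.69 to 0.14 for Syt1, -0.39 to 0.021 for Syt9, -0.34 to 0.18 for Snap25, -0.27 to 0.047 for Syt15, -0.20 to 0.22 for Syn1, -0.20 to 0.16 for Snap91, -0.090 to 0.096 for Syt2, -0.19 to 0.21 for Syt11, -0.033 to 0.14 for Syn2, -0.38 to 0.027 for Tubb3 and -0.048 to 0.088 for Tubb1.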

Other observations

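Nefl, Nefm and Stmn4 lie on mouse chromosome 14 close to Ebf2 itself. In RefSeq order 4 protein-coding genes lie between Ebf2 and Nefl, and Nefl and Nefm are direct neighbours. On the way to Stmn4 there are 5. Of the genes between Ebf2 and Nefm 4 were measured (Nefl among them), 2 of them lower in KO, with a median log2 fold change of 0.09, and 0 passed. Both measured genes on the way to Stmn4 were lower in KO, with 0 passing.

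Of the 29 probe sets that stood in WT pool 9 more than 1 above every other pool, 4 were members, 5 were among the 59 related neuronal genes, and 20 were others. The others, named after their values were seen, included the epidermal genes Lor, at 6.84 and 7.44 in KO against 7.08, 11.19 and 8.84 in WT pools 1, 9 and 11, and Krt1. They also included Mrgprx1, a receptor of itch-sensing neurons, at 5.86 and 5.71 in KO against 5.61, 7.15 and 5.86 in WT.

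A probe set that the annotation gives to Tuba1a, Tuba1b and Tuba1c together was no member. It read 9.62 and 9.70 in KO pools 2 and 4, against 9.39, 9.04 and 9.26 in WT pools 1, 9 and 11 (log2 fold change 0.43, SE 0.17, limma adjusted p = 0.244). A probe set given to Zfp646 and Tubb4b together was no member either. It read 11.85 and 11.84 in KO, against 11.81, 11.72 and 11.52 in WT (log2 fold change 0.16, SE 0.17, adjusted p = 0.660). Both probe sets had KO pools above all WT pools, beside 17.5% of the table, and neither was highest in WT pool 9.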
